A study of Homo sapiens with 9 samples.

Results

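The 9 genes described here encode the bHLH-PAS subunits of the hypoxia-inducible factor (HIF) and circadian clock dimers. They were taken by gene name from the 27673 genes of the count table. The class I subunits are EPAS1 (encoding HIF2α), HIF1A (HIF1α), HIF3A (HIF3α), CLOCK and NPAS2. The class II subunits, the partners they bind, are ARNT (HIF1β), ARNT2, ARNTL (now named BMAL1) and ARNTL2 (BMAL2). All 9 were present in the table and all 9 passed the filter on low counts, HIF3A only through its reads in shBMAL1. RNA sequencing was performed on A498, an established human line of clear cell renal cell carcinoma (ccRCC), to compare the transcriptomes left after loss of either HIF2α partner. There were 3 groups of 3 biological replicates: shControl (labelled WT, a control hairpin), shBMAL1 (BMAL1 knockdown) and shARNT (ARNT knockdown). All 9 cultures carried a PLKO.1 lentivirus produced in HEK293T cells, were selected for 1 week in 2.5 µg/mL puromycin and were then kept in 1.25 µg/mL. Group labels name the target and not the hairpin sequence. The study lists a BMAL1 hairpin and an independent one, and the labels do not say which was used. No further hairpin group and no re-expression was included for either target, so target loss and other hairpin effects cannot be told apart. Transcripts were measured and protein was not, and gene-level counts do not separate transcript variants.

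HIF is a dimer of an oxygen-regulated α subunit and a constitutive β subunit, classically ARNT. In normal oxygen the α subunits are hydroxylated by EGLN enzymes, recognised by the VHL ubiquitin ligase and degraded, a route that is commonly lost in ccRCC, where HIF2α drives tumor growth. In the clock, CLOCK or its paralog NPAS2 pairs with BMAL1 at E-boxes to drive the PER, CRY and NR1D genes, whose products in turn repress the dimer or the BMAL1 gene. The bHLH and PAS domains of these proteins mediate DNA binding and dimerization, so the supply of each subunit bears on which dimers can form.

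The sequences just upstream of the paralogous pairs EPAS1 and HIF1A, and ARNTL and ARNTL2, are shown because, of the 4 paralogous pairs among the subunits, these shifted furthest in their balance against control. Each is the 250 bases before the first start listed by RefSeq (GRCh38.p14, plus strand), at chr2:46297157-46297406 for EPAS1, chr14:61695263-61695512 for HIF1A, chr11:13277540-13277789 for ARNTL and chr12:27332586-27332835 for ARNTL2. Capitals mark the core letters of a hypoxia response element (ACGTG or GCGTG, on either strand).
EPAS1: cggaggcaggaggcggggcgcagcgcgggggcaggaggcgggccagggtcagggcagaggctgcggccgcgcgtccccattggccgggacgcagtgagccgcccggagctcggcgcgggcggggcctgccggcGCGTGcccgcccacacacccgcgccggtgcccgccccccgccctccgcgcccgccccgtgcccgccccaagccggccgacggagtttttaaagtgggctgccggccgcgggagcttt
HIF1A: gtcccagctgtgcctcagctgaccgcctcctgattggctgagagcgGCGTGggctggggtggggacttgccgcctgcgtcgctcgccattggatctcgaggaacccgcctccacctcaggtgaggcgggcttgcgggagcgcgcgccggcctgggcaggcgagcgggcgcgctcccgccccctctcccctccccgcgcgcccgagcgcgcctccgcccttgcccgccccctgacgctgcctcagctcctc
ARNTL: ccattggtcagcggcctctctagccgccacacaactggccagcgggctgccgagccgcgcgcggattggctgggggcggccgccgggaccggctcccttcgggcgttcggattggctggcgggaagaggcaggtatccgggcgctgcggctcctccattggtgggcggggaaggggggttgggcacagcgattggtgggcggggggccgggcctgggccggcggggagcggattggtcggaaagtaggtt
ARNTL2: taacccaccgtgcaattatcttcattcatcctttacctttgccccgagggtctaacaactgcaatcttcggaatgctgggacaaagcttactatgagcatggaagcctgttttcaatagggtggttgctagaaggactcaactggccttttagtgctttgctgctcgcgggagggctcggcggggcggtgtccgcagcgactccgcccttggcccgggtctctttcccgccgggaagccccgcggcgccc
The EPAS1 window held 1 such core, whose first letter lay 117 bases before the start, and the HIF1A window held 1 at 204 bases. Neither BMAL paralog had one in its first window, and 43.2% of 35116 promoter windows of this length held at least 1. The E-box CACGTG, which contains ACGTG, occurred in no window of the 8 members with an entry, against 6.34% of all windows. The exact letters AGGTCA, an element bound by ROR and NR1D proteins, were likewise in none of them, against 12.1% of all windows. Only these letters, within the 250 bases before a start, were searched. The first ARNTL window ended in aggtt, and variant letters or sites reaching past the start were not examined. Whether ARNTL carries an element for these proteins was therefore not tested. GC content was 80.8% for EPAS1, 75.6% for HIF1A, 72.8% for ARNTL and 58.0% for ARNTL2.

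Libraries held 35269851 to 36099075 counts, and 15551 genes were tested. The scaling factors between libraries (TMM) ranged over 0.932 to 0.944 for the shControl libraries, 0.961 to 0.972 for shBMAL1 and 1.10 to 1.11 for shARNT, so levels in CPM (counts scaled to a common library size) in shARNT rest more on the scaling than those in shBMAL1. The line expressed all 5 markers of a kidney epithelial line that were examined (PAX8, PAX2, KRT8, KRT18, VIM), whose summed level ranged over 7653 to 7702 CPM for shControl libraries, 5663 to 6133 for shBMAL1 and 2048 to 2206 for shARNT. VIM made up most of this sum and fell from 5974 CPM in shControl to 812 in shARNT, whereas PAX8 rose there from 35.98 to 100.3 CPM and KRT18 stood at 566 and 563 CPM. Of 7 markers of other cell types, CD3E was at 0 in every library, and CDH5 had 1 count in a single library. Their sum without the collagen gene COL1A1 ranged over 2.43 to 2.89 CPM for shControl libraries, 0.697 to 1.05 for shBMAL1 and 0.707 to 1.03 for shARNT, and COL1A1 itself was at 237, 35.7 and 45.4 CPM. The stromal gene PDGFRB led the former sum in shControl, at 2.20 CPM, and was at 0.168 in shARNT. CD14 rose from 0.191 to 0.698 CPM and led that sum in shARNT. The part of these marker shifts in the results on the 9 subunits was not tested. In bulk RNA, fewer cells that express a gene and less RNA per cell cannot be told apart.

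Nearly all of the subunits changed in each comparison. In shARNT against shControl, 8 of the 9 were called at an adjusted p under 0.1 (Benjamini-Hochberg, over the quasi-likelihood tests of edgeR, which gave every adjusted p printed here), 4 higher and 4 lower, against 81.8% of all tested genes. In shBMAL1 all 9 were called, 5 higher and 4 lower (4 and 4 of 8 without HIF3A), against 63.3% of all genes. With so many genes called, being called does not set the subunits apart. An absolute log2 fold change over 1 was seen for 5 of the 9 in shARNT against 31.6% of all genes, and for 4 of the 9 in shBMAL1 (3 of 8 without HIF3A) against 10.5%. Without HIF3A, the median absolute log2 fold change of the other 8 was 1.39 in shARNT and 0.80 in shBMAL1, beside 0.66 and 0.32 over all tested genes. These counts and medians include the hairpin target of each group, ARNT in shARNT (-2.414) and ARNTL in shBMAL1 (-1.695). The fall of a target was fixed by the design. Both comparisons use the same 3 control libraries, and p-values reflect the spread among these cultures.

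**Figure D1:**
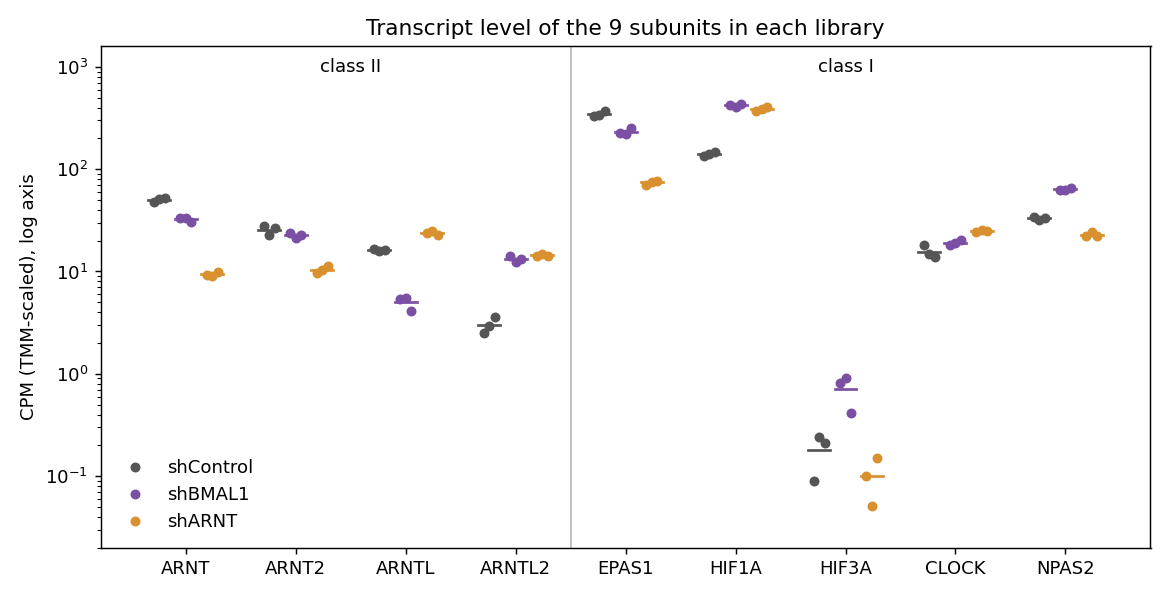
Level of each subunit in CPM (log axis) in every library, with a horizontal bar at the mean of the 3 libraries of a group. ARNTL2 and HIF1A were higher in all 6 depleted libraries than in any control library, and ARNT and EPAS1 were lower in all 6.

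Among the class II subunits, each targeted transcript was reduced in its own group. ARNT (chromosome 1, 150782189 to 150849184, minus strand, GRCh37) stood at 48.2, 50.6 and 52.6 CPM in shControl and at 9.32, 9.13 and 9.95 CPM in shARNT, 18.8% of control. ARNTL (chromosome 11, 13298199 to 13408813, plus strand) stood at 16.7, 15.9 and 16.2 CPM in shControl and at 5.41, 5.54 and 4.12 CPM in shBMAL1, 30.9% of control. Neither pair of groups overlapped. The reciprocal effects went in opposite directions. ARNT measured 33.0, 33.3 and 30.5 CPM in shBMAL1, below every control library, with a log2 fold change of -0.65 (adjusted p = 1.54e-08, SE 0.0599). ARNTL measured 23.9, 25.1 and 22.5 CPM in shARNT, above every control library, with a log2 fold change of 0.55 (adjusted p = 8.28e-06, SE 0.0866).

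ARNT2, an ARNT paralog best known for its role in neurons that can also partner HIFα, was lower in shARNT. Its level (chromosome 15, 80696692 to 80890274, plus strand) was 27.8, 22.6 and 26.5 CPM in shControl and 9.72, 10.3 and 11.3 CPM in shARNT. The groups did not overlap and the log2 fold change was -1.29 (adjusted p = 2.35e-11, SE 0.0863), which left 40.8% of control. In shBMAL1 the ARNT2 values of 23.6, 21.4 and 22.8 CPM overlapped those of shControl. The log2 fold change there was -0.18 (adjusted p = 0.0678, SE 0.0818), and the call was lost under scaling by library size alone (-0.13) and without shControl replicate 1 (-0.12) or 3 (-0.16) or shBMAL1 replicate 2 (-0.14) or 3 (-0.19).

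ARNTL2, the paralog of BMAL1 that can also pair with CLOCK, rose in both depletions. Its level (chromosome 12, 27485769 to 27578222, plus strand) was 2.52, 2.95 and 3.60 CPM in shControl. It was 14.0, 12.3 and 13.3 CPM in shBMAL1 and 14.1, 14.8 and 14.3 CPM in shARNT. All 6 depleted libraries were above all 3 control libraries, at 4.37-fold the control mean in shBMAL1 and 4.76-fold in shARNT. The log2 fold change was 2.13 (adjusted p = 5.97e-12, SE 0.117) in shBMAL1 and 2.25 (adjusted p = 3.52e-13, SE 0.116) in shARNT. The change in shBMAL1 exceeded in size that of 98.4% of tested genes and the change in shARNT that of 93.4%. The depletions differed from each other by 0.12 on the log2 scale (adjusted p = 0.255, SE 0.0978), and by 0.31 under library size alone (adjusted p = 0.00611), a scaling that shifted the median of all genes by 0.18 in this comparison.

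The HIFα genes moved against each other. EPAS1 (chromosome 2, 46520806 to 46613836, plus strand) stood at 331, 339 and 366 CPM in shControl. It was 225, 219 and 254 CPM in shBMAL1 and 70.4, 75.7 and 76.7 CPM in shARNT. The 3 groups were fully separated, with 67.5% of control left in shBMAL1 and 21.5% in shARNT. The EPAS1 log2 fold change was -0.57 in shBMAL1 (adjusted p = 1.54e-08, SE 0.0528) and -2.22 in shARNT (adjusted p = 2.94e-18, SE 0.0559). The EPAS1 transcript in shARNT was thus reduced almost as far as that of the targeted ARNT.

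HIF1A (chromosome 14, 62162231 to 62214977, plus strand), which encodes the other major oxygen-regulated subunit, rose instead. It stood at 133, 139.6 and 147 CPM in shControl. It was 428, 405 and 430.1 CPM in shBMAL1 and 373, 389.8 and 408 CPM in shARNT. All 6 depleted libraries were above every control library, by 3.01-fold and 2.79-fold on average, with log2 fold changes of 1.59 (adjusted p = 2.43e-16, SE 0.0445) and 1.48 (adjusted p = 5.02e-17, SE 0.0444). The change in shBMAL1 exceeded in size that of 96.3% of tested genes, and the change in shARNT that of 83.4%.

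A second transcript of the HIF1A locus was counted in the same proportion. HIF1A-AS2 is a long noncoding RNA antisense to the 3′ end of HIF1A. It had 883, 760 and 922 counts in shControl, 2570, 2632 and 2896 in shBMAL1 and 2779, 2961 and 2665 in shARNT. All depleted libraries were above all controls, with log2 fold changes of 1.61 in shBMAL1 (adjusted p = 1.28e-13) and 1.45 in shARNT (adjusted p = 8.64e-14). The HIF1A-AS2 count was 18.5% ± 1.77 of the HIF1A count in shControl, 18.7% ± 1.11 in shBMAL1 and 18.2% ± 1.47 in shARNT (SD, n = 3), so the groups overlapped in this share. The library kit keeps strand, but whether the counting used it was not stated, and without it reads of HIF1A and of its antisense transcript cannot be told apart.

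**Figure D2:**
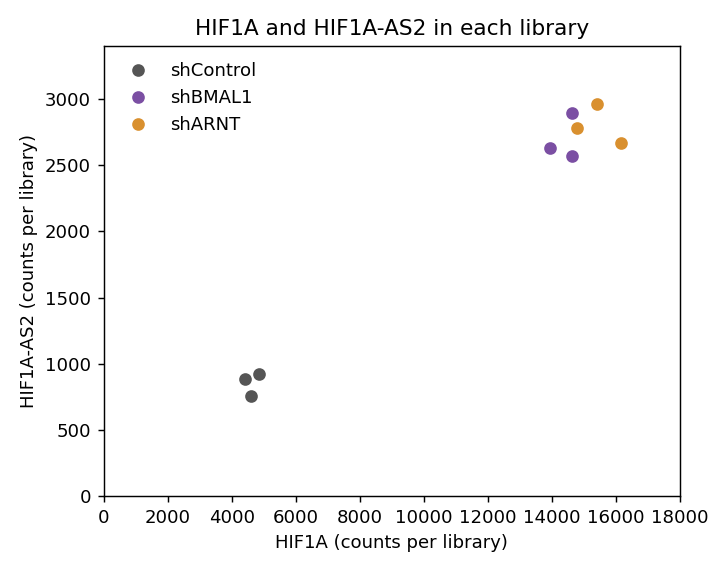
Counts of HIF1A (x axis) and of HIF1A-AS2 (y axis) in each of the 9 libraries, on linear axes. The 3 control libraries lie between 4428 and 4842 HIF1A counts and the 6 depleted libraries between 13955 and 16176, with HIF1A-AS2 between 16.5% and 19.9% of HIF1A throughout.

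HIF3A (chromosome 19, 46800299 to 46846690, plus strand), a less abundant α subunit with variants that restrain the others, was near the limit of detection. It had 3, 8 and 7 counts in shControl, 28, 31 and 14 in shBMAL1 and 4, 2 and 6 in shARNT. The shBMAL1 libraries were above all others, with a log2 fold change of 1.95 (adjusted p = 0.00177, SE 0.483). In shARNT the groups overlapped and the log2 fold change was -0.82 (adjusted p = 0.248, SE 0.644), a difference not detectable at this depth. Because HIF3A entered the test only through the group in which it was high, its call in shBMAL1 is given as a value and not as evidence on the family.

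The clock subunits of class I diverged. CLOCK (chromosome 4, 56294070 to 56413076, minus strand), which forms the canonical dimer with BMAL1, measured 18.3, 14.7 and 14.0 CPM in shControl and 24.3, 25.7 and 25.1 CPM in shARNT. All 3 shARNT libraries were above control, with a log2 fold change of 0.67 (adjusted p = 5.79e-07, SE 0.0868). In shBMAL1, CLOCK measured 18.1, 18.8 and 20.2 CPM, and the lowest of these was under the highest control. The CLOCK log2 fold change in shBMAL1 was 0.28 (adjusted p = 0.0107, SE 0.0890). The neighboring gene TMEM165 runs on the opposite strand and shares 76 exon bases with CLOCK. It rose in shBMAL1 (log2 fold change 0.75) and fell in shARNT (-0.68), and its part in the CLOCK counts was not tested.

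NPAS2 (chromosome 2, 101436601 to 101613291, plus strand), which can replace CLOCK in the dimer, measured 33.8, 32.2 and 33.2 CPM in shControl. It was 62.9, 63.2 and 65.7 CPM in shBMAL1 and 22.3, 24.6 and 22.0 CPM in shARNT. The 3 groups were fully separated, shBMAL1 above control and shARNT below. The NPAS2 log2 fold change was 0.95 in shBMAL1 (adjusted p = 1.60e-11, SE 0.0560) and -0.53 in shARNT (adjusted p = 7.18e-08, SE 0.0586). Scaling by library size alone, which shifted the median of all genes by 0.23 in shARNT, gave -0.29 there.

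**Figure D3:**
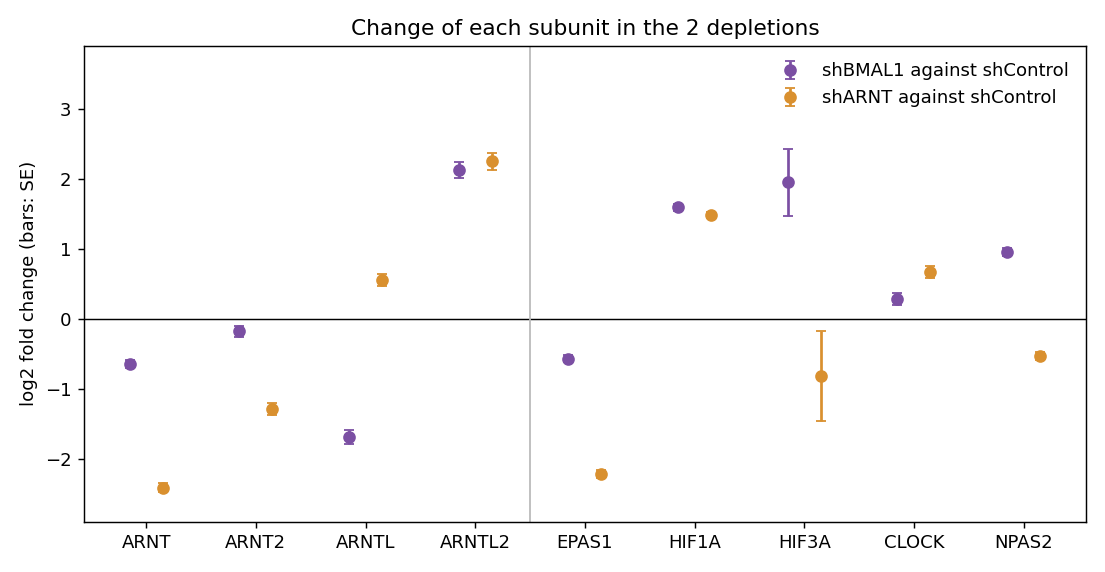
Log2 fold change of each subunit against shControl in shBMAL1 (purple) and shARNT (orange), with bars of 1 SE and the same 3 control libraries in both. ARNTL and NPAS2 lie on opposite sides of 0 in the depletions, while ARNT, ARNT2 and EPAS1 are below 0 and ARNTL2, HIF1A and CLOCK above 0 in both.

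The direct contrast of shARNT with shBMAL1 uses no control library. It called 8 of the 9 subunits, 2 higher and 6 lower in shARNT (2 and 5 of 8 without HIF3A), against 81.2% of all tested genes. An absolute log2 fold change of 1 was passed by 6 of the 9 (5 of 8 without HIF3A), against 31.0%. These counts include both hairpin targets, ARNT and ARNTL. ARNTL was higher in shARNT, with a log2 difference of 2.25 (adjusted p = 2.42e-14), as was CLOCK at 0.39 (adjusted p = 3.16e-04). ARNT was lower in shARNT, with a log2 difference of -1.77 (adjusted p = 2.76e-15). The log2 difference was -1.65 for EPAS1 (adjusted p = 3.30e-16), -1.48 for NPAS2 (adjusted p = 3.12e-15) and -1.12 for ARNT2 (adjusted p = 2.89e-10). HIF1A differed by -0.11 (adjusted p = 0.0255), and the direction turned to 0.081 under library size alone, which shifted the median of all genes by 0.18. ARNTL2 was the subunit that did not pass in this contrast.

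To compare levels between genes, CPM was divided by the length of all exons of a gene in kilobases. In shControl the order of these levels was EPAS1 (47.3), HIF1A (27.1), ARNT (7.83), ARNT2 (3.31), NPAS2 (2.64), ARNTL (2.35), CLOCK (1.36), ARNTL2 (0.432) and HIF3A (0.0217 CPM per kilobase), and no neighbors overlapped between libraries. With the length of the longest transcript, ARNTL (4.22), NPAS2 (4.14) and ARNT2 (3.83) followed ARNT in that order, so the order of these 3 depended on the length used. EPAS1 thus held 51.2% of the summed level of the 9 subunits and HIF1A 29.4%. In shBMAL1 HIF1A led (81.7) and EPAS1 followed (31.9), with 62.4% and 24.4% of the sum. NPAS2 (5.11) and ARNT (5.00) came next and overlapped, and ARNTL (0.725) fell below ARNTL2 (1.89) and CLOCK (1.65). In shARNT HIF1A (75.7) held 77.1% of the sum and EPAS1 (10.2) held 10.4%. ARNTL (3.44) came next there and had become the most abundant class II subunit, while ARNT (1.47) and ARNT2 (1.35) overlapped each other near the end of the order, as did CLOCK (2.17) and ARNTL2 (2.05).

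The balance of the classes was then taken from sums of these levels within each library. Class II subunits together measured 13.9 ± 0.481 CPM per kilobase in shControl, 10.5 ± 0.394 in shBMAL1 and 8.31 ± 0.159 in shARNT (SD, n = 3), and no groups overlapped. Class I subunits together stood at 78.5 ± 3.67 in shControl, 120.5 ± 4.96 in shBMAL1 and 89.9 ± 3.80 in shARNT, where the separation from control was lost with the length of the longest transcript in place of all exons. These sums were compared by the spread of the libraries, without a test. Class I exceeded class II 5.64-fold in shControl, 11.4-fold in shBMAL1 and 10.8-fold in shARNT. A ratio within a library does not depend on the scaling between libraries, but its class I side is set by the abundant EPAS1 and HIF1A. Its class II side holds the hairpin targets. In shARNT the targeted ARNT fell from 7.83 to 1.47 CPM per kilobase, while the class I sum was 1.146-fold that of control. With every subunit weighted alike (the mean of log2 levels), the class II to class I balance of shARNT against shControl was 0.065 on the log2 scale in place of -0.94. That weighting counts the scarce HIF3A, whose own change of -0.82 was not called, as much as EPAS1. Within class II it counts the rises of ARNTL2 (2.25) and ARNTL (0.55) as much as the falls of ARNT (-2.41) and ARNT2 (-1.29).

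**Figure D4:**
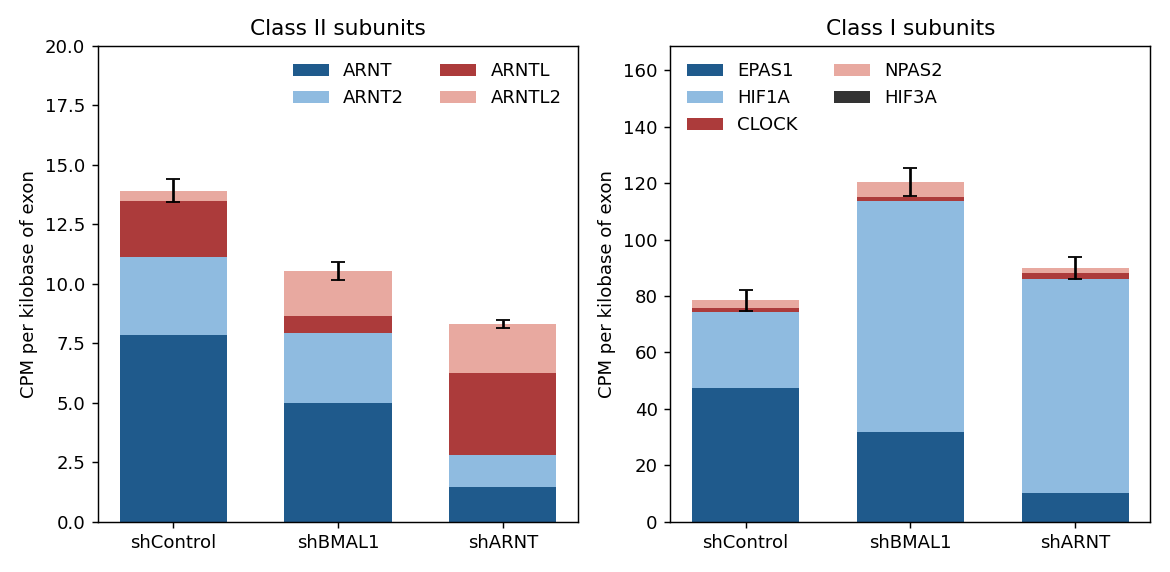
Mean level in CPM per kilobase of exon of the class II subunits (left) and class I subunits (right), stacked by gene, with bars of 1 SD of the sum over the 3 libraries of a group. ARNT and ARNT2 make up most of the class II sum in shControl (11.1 of 13.9) and the smaller part in shARNT (2.82 of 8.31), and HIF1A takes the place of EPAS1 as the largest class I segment in both depletions.

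Within class II, the ARNT and BMAL branches separated. ARNT and ARNT2 together measured 11.1 ± 0.411 CPM per kilobase in shControl, 7.93 ± 0.243 in shBMAL1 and 2.82 ± 0.161 in shARNT. ARNTL and ARNTL2 together measured 2.78 ± 0.0699 in shControl and 5.49 ± 0.225 in shARNT, 1.98-fold higher. In shBMAL1 this sum was 2.61 ± 0.156 and overlapped control, since ARNTL2 rose as ARNTL fell. That overlap depended on the length used: with the longest transcript the sum was 3.21 ± 0.224 in shBMAL1 against 4.65 ± 0.0930 in shControl, without overlap. The ARNTL to ARNTL2 ratio went from 5.49 in shControl to 0.381 in shBMAL1 and 1.67 in shARNT, so ARNTL2 was the more abundant BMAL transcript in shBMAL1 alone among the 3 groups. With the longest transcript these ratios were 9.72, 0.675 and 2.96. The ARNT to ARNTL ratio was 3.33 in shControl, 6.96 in shBMAL1 and 0.427 in shARNT.

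Within the HIF arm, the α subunits exceeded ARNT and ARNT2 6.68-fold in shControl, 14.3-fold in shBMAL1 and 30.5-fold in shARNT, with ranges over libraries of 6.44 to 6.83, 13.7 to 15.4 and 29.9 to 31.3. With every subunit weighted alike, the balance of β over α subunits in shARNT against shBMAL1 was 0.10 on the log2 scale in place of -1.09. The summed α subunits were 74.5 ± 3.85 CPM per kilobase in shControl, 113.7 ± 4.80 in shBMAL1 and 85.9 ± 3.78 in shARNT, so in shARNT the shift came mainly with the fall of the β subunits. EPAS1 exceeded HIF1A 1.74-fold in shControl. HIF1A exceeded EPAS1 2.56-fold in shBMAL1 and 7.44-fold in shARNT, and the order was reversed in every depleted library. The SD of this ratio among the 3 libraries of a group was 0.023 to 0.088 on the log2 scale.

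Within the clock arm, CLOCK and NPAS2 together exceeded ARNTL and ARNTL2 1.44-fold in shControl and 2.59-fold in shBMAL1, and in shARNT the BMAL subunits were the larger side, at 1.37-fold. The sum of CLOCK and NPAS2 was 4.00 ± 0.250 CPM per kilobase in shControl, 6.76 ± 0.216 in shBMAL1 and 4.00 ± 0.163 in shARNT, where it overlapped control while its makeup changed. The CLOCK to NPAS2 ratio was 0.510 in shControl, 0.323 in shBMAL1 and 1.18 in shARNT, without overlap of groups. With the longest transcript the ratio in shARNT was 0.831, so which of them was the more abundant in shARNT depended on the length used.

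Genes around the subunits were examined through lists of known regulators and targets. Of all tested genes, 40.5% were called higher and 41.3% lower in shARNT (81.8% in all), and 31.9% higher and 31.5% lower in shBMAL1 (63.3% in all). The counts of each list are given as a description beside these shares. Of 6 genes preferentially driven by HIF2, 5 were tested, and in shARNT 4 fell and none rose (4 of 5 called, beside 81.8% of all genes), with a median log2 fold change of -1.21. VEGFA, the angiogenic growth factor, fell to a log2 fold change of -3.88 and TGFA, an EGFR ligand, to -2.87. In shBMAL1, 3 of the 5 fell and 2 rose, with a median of -0.43, and the glucose transporter gene SLC2A1 (-0.75) and VEGFA (-0.46) fell furthest of these. Of 10 genes preferentially driven by HIF1, most of them glycolytic, 8 fell and 1 rose in shARNT (median -0.79), and 6 fell and 3 rose in shBMAL1 (median -0.29). The carbonic anhydrase gene CA9 fell in both, to -6.17 and -1.34. LDHA, for lactate dehydrogenase A, fell in shARNT (-2.81) and rose in shBMAL1 (0.49), and PGK1, a glycolytic kinase, showed -0.24 and 0.88. BNIP3, a mitophagy receptor gene, rose in both (0.64 and 0.84). The HIF1A transcript was thus 2.79-fold higher in shARNT while most of the tested HIF1 targets were lower. ARNT, the classical partner of the α subunits, was at 18.8% of control there. HIF1α protein was not measured, and the part of either subunit in the target levels was not tested. The median over all tested genes was -0.01 in shARNT and 0.00 in shBMAL1.

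Of 8 tested α subunit turnover genes, 5 rose and 2 fell in shARNT, and 6 rose and none fell in shBMAL1 (medians 0.41 and 0.33), beside the shares of 81.8% and 63.3% of all genes called. CUL2, the cullin of the VHL ligase, rose in both (1.29 and 0.57). VHL rose in shARNT (1.17) and showed 0.05 in shBMAL1 (adjusted p = 0.697). EGLN3, a prolyl hydroxylase that is itself a HIF target, fell in shARNT (-3.43) and rose in shBMAL1 (0.58), and EGLN1 showed -0.15 in shARNT (adjusted p = 0.0300).

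**Figure D5:**
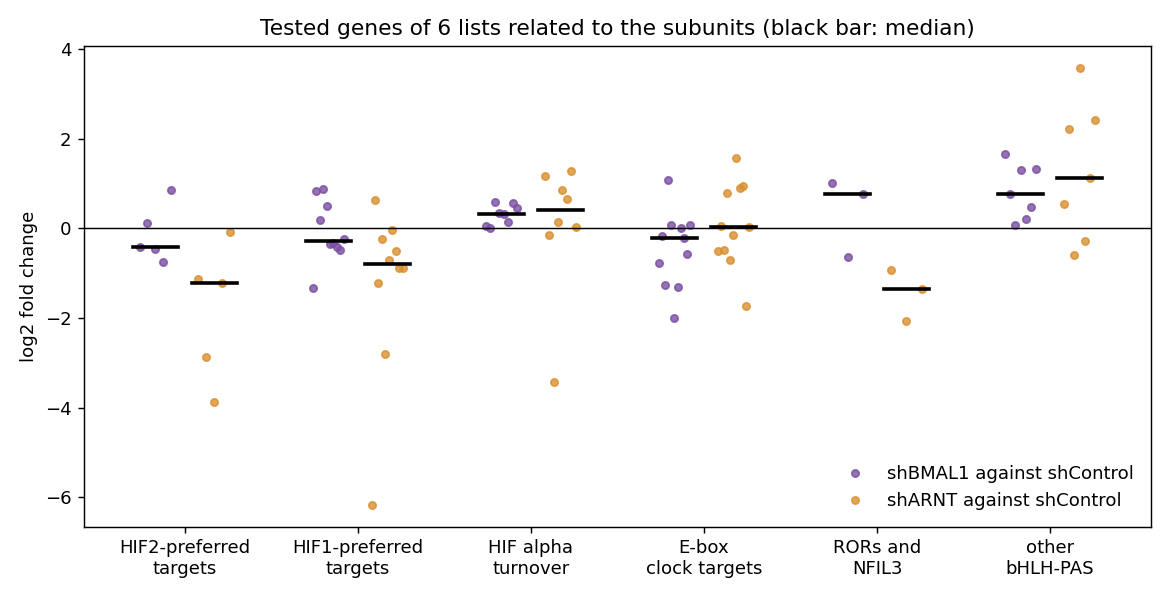
Log2 fold change against shControl of every tested gene in 6 lists, for shBMAL1 (purple) and shARNT (orange), with a black bar at the median of a list. The HIF2-preferred list has medians of -0.43 in shBMAL1 and -1.21 in shARNT, and the list of other bHLH-PAS genes has medians of 0.77 and 1.13.

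Of 13 E-box clock targets, 11 were tested. In shBMAL1, 5 fell and 1 rose (median -0.21), and in shARNT 4 fell and 4 rose (median 0.03). NR1D1 and NR1D2, the REV-ERB repressors of the ARNTL gene, fell in shBMAL1 to -2.01 and -1.31. In shARNT NR1D2 rose (1.58) and NR1D1 showed -0.14 (adjusted p = 0.125). CRY1, a repressor of the CLOCK dimer, rose in shBMAL1 (1.08) and in shARNT (0.80), while its paralog CRY2 fell in shARNT (-0.70). BHLHE40, which is a HIF target as well as a clock repressor, fell in shARNT (-1.72) and shBMAL1 (-0.58), and the PAR-bZIP factor gene TEF rose in shARNT (0.94).

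RORA and RORB, which activate ARNTL, and NFIL3, a repressor in the clock, were 3 of 3 lower in shARNT (median -1.36), and in shBMAL1 2 rose and none fell (median 0.77). NFIL3 was at 64.8 ± 2.02 CPM in shControl, 110.8 ± 0.931 in shBMAL1 and 25.3 ± 4.32 in shARNT (SD, n = 3). RORA and RORB were scarce, with means of 0.645 and 1.21 CPM in shControl, and ARNTL was higher in shARNT, where these genes were lower.

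Of 7 other bHLH-PAS genes tested, 5 rose and 2 fell in shARNT, and 6 rose and none fell in shBMAL1 (medians 1.13 and 0.77), beside the shares of 81.8% and 63.3% of all genes called. Without NPAS3, which was testable only through its reads in shARNT, 4 of 6 and 5 of 6 rose, with medians of 0.84 and 0.62. AHR, the dioxin receptor and another class I partner of ARNT, rose 1.67 in shBMAL1 and 0.55 in shARNT on the log2 scale. Its repressor AHRR rose 0.77 and 2.23. The p160 coactivator gene NCOA3 rose 1.33 and 2.41 and NCOA2 rose 0.48 and 1.13, while NCOA1 rose in shBMAL1 (0.22) and fell in shARNT (-0.28). NPAS1 fell in shARNT (-0.60, adjusted p = 0.0309) and showed 0.08 in shBMAL1 (adjusted p = 0.801). NPAS3 was scarce, at 0.101 CPM in shControl and 1.25 in shARNT, and rose 1.30 and 3.58. SIM1, SIM2 and NPAS4 had too few reads to be tested.

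The genes whose pattern was most like that of a subunit were named by Pearson's r of log2 CPM over the 9 libraries, as a description without a test, since 3 groups set most of any such r. ARNT was matched most closely by PREX2 (r = 0.9995) and KANK1 (r = 0.9991), and ARNT2 by AHNAK2 (r = 0.9948) and MIR4709 (r = 0.9944). EPAS1 was matched by ATP2C1 (r = 0.9989) and SDC1 (r = 0.9983), HIF1A by TRIM22 and SRC (r = 0.998 each), and NPAS2 by MGST1 (r = 0.999) and ERAP1 (r = 0.9975). ARNTL was matched by LOC100288144 (r = 0.9967) and BBS2 (r = 0.9942), ARNTL2 by SLC9A3R2 (r = 0.9967) and IL15RA (r = 0.9944), and CLOCK by NCBP2 (r = 0.987) and CIR1 (r = 0.9857). HIF3A was matched by LOC100507520 (r = 0.974) and BLMH (r = 0.9716). An r over 0.95 was reached by 1404 of 11230 genes for ARNT, by 123 for CLOCK and by 10 of 11231 for HIF3A.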

How the data were processed

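RNA from A498 cells was measured in 9 libraries (3 each of shControl, shBMAL1 and shARNT). Stranded mRNA libraries were sequenced as paired ends on a BGISEQ-500. The deposited values are expected counts, total reads per gene without normalization. The study's methods state alignment to GRCh37 with SeqMan NGen 17 and export of counts with ArrayStar 17, whereas the submitters' processing notes name hg38, STAR and DESeq2. Both are given because the files do not settle which made the table. Annotation release, strand use, reads with several alignments and counting of mates were not stated.

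Values of 0.05 stood for no reads and were set to 0, the 43 names on more than 1 line were summed, and expected counts were rounded. Differential expression was tested with edgeR 4.0.16 (glmQLFit and glmQLFTest, R 4.3.3) on all 9 libraries with group as the factor, TMM scaling and filterByExpr, at a Benjamini-Hochberg adjusted p under 0.1 over 15551 genes. Replicates differed by more than sampling noise (chi-square per gene 2.61 to 3.33), so none were merged. Replicate numbers did not pair the libraries. The steps were tested on simulated counts with known changes in a small share of genes, which does not test the scaling where most genes change. Levels are CPM on TMM-scaled sizes, and for comparison between genes CPM per kilobase of exon (GENCODE 44 on GRCh37). Ratios of summed levels had no test.

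The 9 genes and all lists were chosen with earlier results of these data known. All 9 members were named. From each list, in each contrast with shControl, the 2 largest called rises and falls among genes whose mean log2 CPM reached 2 were named, for other bHLH-PAS genes every tested gene, and for each member the 2 genes of highest Pearson r. A few genes of the lists are not reported here and were left out of the list counts. The RORA and RORB levels, the values of a named gene in the other depletion and the alternatives for the summed levels were added after the data were seen. Alternatives were DESeq2 1.42.0, other scalings, filters, lengths and weightings, halved counts, a minimum fold change of 1.5, a replicate block and leaving out each library. Promoter sequences were taken from RefSeq (GRCh38.p14), and 8 of the 9 members had an entry.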

Additional observations from a re-analysis of the deposited data

Results flagged for a closer look

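The effect of shARNT differed from that of shBMAL1 for 8 of the 9 subunits in the direct contrast of these groups (edgeR quasi-likelihood test, Benjamini-Hochberg adjusted p under 0.1 over all tested genes), which is the test of the difference between the effects. Without HIF3A, 2 of the other 8 were higher in shARNT and 5 lower. The log2 difference, shARNT minus shBMAL1, was 2.25 for ARNTL and 0.39 for CLOCK. It was -1.77 for ARNT, -1.12 for ARNT2, -1.65 for EPAS1, -1.48 for NPAS2 and -2.77 for HIF3A. For HIF1A it was -0.11. The values for ARNT and ARNTL include the direct effect of the hairpins on their targets. HIF3A rests on 2 to 31 counts per library and passed the filter only through its reads in shBMAL1. The share of all tested genes called in this contrast was 81.2%.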

How the results depend on the processing

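Of the values of single subunits under the alternatives, 462 kept their direction and side of the threshold, 15 lost the call, 1 gained it and 1 turned. DESeq2, RLE scaling, filters, halved counts and the replicate block changed no direction of a called subunit. Requiring a change beyond 1.5-fold lowered the called genes to 6965 (shARNT), 2111 (shBMAL1) and 6831 (direct contrast), and the called subunits to 5 in each comparison with shControl, HIF3A among them in shBMAL1. With library size alone the HIF1A difference between depletions was 0.081 (adjusted p = 0.0766), and it lost its call without shARNT replicate 1 (-0.08, adjusted p = 0.136). That scaling shifted the median of all genes by 0.23 in shARNT and 0.05 in shBMAL1, and gave 7827 higher and 5111 lower genes in shARNT in place of 6305 and 6417, and 7471 and 5287 in the direct contrast in place of 6241 and 6389.

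The balances depended on length and weighting. With the length of the longest transcript, class II over class I was -0.83 (shARNT), -1.10 (shBMAL1) and 0.27 (direct) on the log2 scale, and BMALs over CLOCK and NPAS2 was -1.34 (shBMAL1) and 2.26 (direct). With the mean of log2 levels, class II over class I was 0.065 (shARNT, turned from -0.94) and 1.02 (direct). In this mean HIF3A weighed as much as EPAS1, and ARNTL2 as much as ARNT. ARNT and ARNT2 over HIFα were then -1.32 (shARNT), -1.42 (shBMAL1) and 0.10 (direct, turned from -1.09), since the scarce HIF3A weighs as much as EPAS1, and BMALs over CLOCK and NPAS2 were 1.33, -0.41 and 1.73.

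Same-numbered libraries correlated from -0.17 to 0.28 in their deviations, and differently numbered ones from -0.23 to 0.34, so the numbers mark no pairs. The highest of these values joined shControl replicate 2 and shARNT replicate 1 (0.34). With shBMAL1 replicate 2, these libraries correlated at 0.28 and 0.27 in turn. Links across numbers were not modeled, so a batch shared across numbers was not tested. A replicate block gave 12683, 9832 and 12592 calls and changed no call of a subunit. Depth limits HIF3A and the other genes under 1 CPM.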
